A study of Oncorhynchus mykiss with 20 samples.

Results

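The transcripts described here are the abundant non-coding RNAs of the rainbow trout (Oncorhynchus mykiss) intestine. They were chosen as the transcripts with an XR_ accession, the prefix that RefSeq gives to predicted non-coding RNA models, whose TPM (a level scaled for transcript length and library depth) averaged at least 10 over all 20 libraries. Transcripts whose gene carries a symbol were left out, so that each member belongs to a gene with only a LOC number or to no gene in the RefSeq table used. The rule found 398 of the 78931 transcripts in the files, and 398 of the 402 XR_ transcripts at or above 10 TPM. The mean level over all libraries is therefore a description of how the members were chosen, and no contrast between groups was used. A mean over all libraries still lets a transcript in through 1 high group or 1 high library: 273 members averaged at least 10 TPM in each group, and 125 were under 10 TPM in at least 1.

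Whole intestines of trout fry were profiled by RNA sequencing in 4 groups of 5 biological replicates. These were Select fish at 65 days post hatch (dph), Select fish at 20 dph, Commercial fish at 65 dph and Commercial fish at 20 dph. Select is a selected strain, which the growth protocol calls ARS-KO, and Commercial is a common commercial strain. All 4 groups were all-female, lived in flow-through spring water of 15 °C and ate a commercial starter diet. The strains shared their rearing as eggs and were split into separate raceways at hatching, so that strain and raceway cannot be told apart. Each library started from 800 ng of RNA, was selected for poly(A) tails and kept strand, which leaves most RNAs without a tail out of view.

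A long non-coding RNA (lncRNA) is a transcript with no recognised protein reading frame. Some are known to guide or hold proteins at chromatin, to act on neighbouring genes or to bind other RNAs, and many have no known role. A transcribed pseudogene is a decayed copy of a gene that still gives RNA, and a non-coding transcript of a protein-coding gene is usually a splice form whose reading frame is broken. No role is known to the files or the table for any single member, so the members are grouped below by the kind of gene the RefSeq table gives.

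The libraries held 7314588 to 13682738 expected counts. The enterocyte markers fabp2 (a fatty acid binding protein of the gut) and vil1 (villin of the brush border) were high in every library, at 7908 to 15294 TPM and 641 to 1338 TPM. Not all markers of that list were. The marker mep1b was listed at 0 in all libraries of both strains at 65 dph, beside 5.15 to 76.0 TPM in Select and 2.60 to 193 TPM in Commercial fish of 20 dph. The marker chia.1 had 0.131 to 18.3 TPM in Select and 0 to 0.787 TPM in Commercial fish of 65 dph. At 20 dph it had 83.5 to 1074 TPM in Select and 188 to 1688 TPM in Commercial fish. None of the 8 exocrine pancreas markers was paired with a transcript, so that tissue was not looked at. The only paired skeletal muscle marker, ckmb, reached 270 TPM in Select fish of 20 dph, where the group median was 3.65 TPM. In the other groups it stayed at or under 5.93 TPM. Select 20 dph replicate 1 carried liver transcripts, with the transferrin gene tfa at 4649 TPM, against at most 81.8 TPM in the other 19 libraries. Of the 4 paired genes of the liver list, ahsg2 also reached 1258 TPM in Select fish of 20 dph. The other paired genes, tf and cps1, stayed at or under 2.03 and 1.60 TPM in every group. Commercial 65 dph replicate 2 was nearly the same as Select 65 dph replicate 5. Over transcripts with whole counts in both, the median squared difference was 0.631 times its sampling variance, where sampling noise alone gives 0.455. The 40 pairs within a group gave 1.52 to 7.28 and the other 149 pairs between groups gave 1.94 to 26.2. The 3 members that separate all other libraries by strain put the library labelled Commercial 65 dph replicate 2 in the Select range. Select 65 dph replicate 5 was among the libraries they were picked to separate, so a near copy of it had to lie there. These members therefore cannot tell which of the 2 labels is right. By the same ratio of squared difference to sampling variance, Commercial 65 dph replicate 2 gave 2.17 to 3.99 with Select 65 dph replicates 1 to 4. With the other Commercial libraries of 65 dph it gave 3.72 to 6.28. For Select 65 dph replicate 5 the values were 2.28 to 3.93 and 4.13 to 6.84, in the same order. Which label is right was not tested. The counts of the strain comparison and the members described there are given with and without these 2 alike libraries.

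Most members had no gene in the table. A gene was paired with 84 members through 80 LOC genes, and 314 members had none. Among the 84 were 56 transcripts of lncRNA genes, 16 non-coding transcripts of protein-coding genes, 9 transcribed pseudogene transcripts and 3 of the class misc_RNA. The median member had a mean of 24.2 TPM and a length of 828 bases, while coding transcripts (NM_ and XM_) chosen at the same level had 24.3 TPM and 1911 bases. The pseudogene transcripts had a median of 137 TPM, against 20.8 TPM for lncRNA transcripts and 24.6 TPM for the members without a gene. At the edge of the rule, XR_002472305.1, XR_002471581.1 and XR_002469450.1 entered with 10.09, 10.05 and 10.02 TPM. XR_002475740.1, XR_002468123.1 and XR_002474974.1 stayed out with 9.93, 9.93 and 9.92 TPM.

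**Figure D1:**
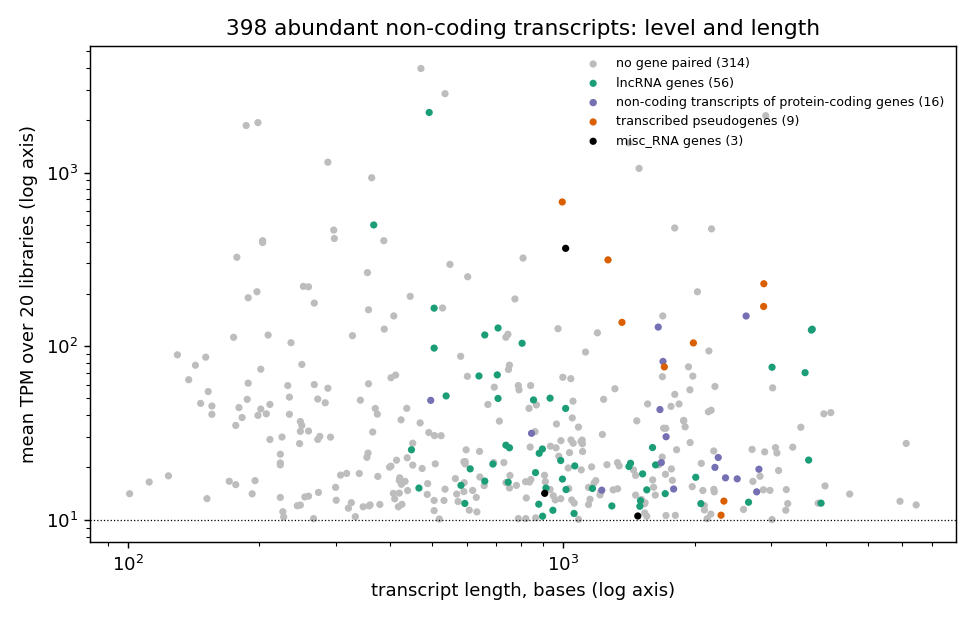
Mean TPM over 20 libraries (log axis) against transcript length in bases (log axis) for the 398 members, 1 point each, coloured by the kind of gene; the dotted line is the bound of 10 TPM. Members without a gene fill the whole range, and the 10 members at or above 1000 TPM include 1 lncRNA transcript.

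A few transcripts carried most of the signal. The first 5 members held 32.0% of the members' summed mean TPM and the first 12 held 53.2%, whereas 104 of the 398 reached 50 TPM. Together the members made up 4.66% ± 0.109 of all TPM in Select fish at 65 dph and 3.75% ± 0.218 at 20 dph. In Commercial fish they made up 4.74% ± 0.265 at 65 dph and 3.99% ± 0.301 at 20 dph (SD, n = 5 each). The share was lowest at 4.53% in Select and 4.52% in Commercial libraries of 65 dph, against highs of 4.03% and 4.30% at 20 dph, so the ages did not overlap in either strain. Transcripts at large also rose on the TPM scale. The median log2 fold change with age of all transcripts tested was 0.39 in Select and 0.33 in Commercial, on log2(TPM + 0.5). That median counts each transcript alike, while a share is weighted by level, so it cannot say whether the rise is particular to the members. On the TMM scale of the age comparison below, coding transcripts at or above 10 TPM had medians of -0.28 in Select and -0.22 in Commercial. The members had 0.01 and 0.02. Whether the rise of the share is particular to the members was not tested. In whole intestine, a change in the number of cells of a type and a change in RNA per cell cannot be told apart. Since the members are short, their share of counts was lower, at 2.18% ± 0.115 and 1.74% ± 0.162 in Select fish of 65 and 20 dph and 2.27% ± 0.211 and 1.87% ± 0.0726 in Commercial fish of 65 and 20 dph.

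The most abundant member was XR_002471830.1, a transcript of 471 bases with no gene paired, at a mean of 3974 TPM. It had 4778, 3817, 5707, 4234 and 5494 TPM in Select libraries of 65 dph and 2506, 1797, 2551, 3316 and 2693 TPM at 20 dph. Commercial libraries had 5355, 4922, 4829, 4645 and 6993 TPM at 65 dph and 3808, 2815, 2019, 3999.8 and 3201 TPM at 20 dph. The older fish were higher in TPM without overlap in both strains. On the count scale used for the test, however, its log2 fold change was 0.53 ± 0.21 (SE) in Select with an adjusted p of 0.079, and 0.36 ± 0.21 in Commercial with an adjusted p of 0.269 (edgeR, described with the age comparison), so it was not called.

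The second member, XR_002474696.1 (535 bases, no gene), did not separate the groups. It had 4271, 2792, 2615, 1971 and 2719 TPM in Select fish of 65 dph and 1981, 4459, 2815, 2953 and 2628 TPM at 20 dph. Commercial fish had 3379, 2828, 3403, 2189.7 and 2535 TPM at 65 dph and 2738, 2926, 3656, 2062 and 1976 TPM at 20 dph. All 4 groups overlapped. XR_002469251.1, the transcript of the lncRNA gene LOC110494310, varied little. It had 2130.1, 2123, 2375, 2441 and 2676 TPM in Select fish of 65 dph and 1923, 2801, 2073, 1815 and 2167 TPM at 20 dph. Commercial fish had 2076, 2679, 2187, 2139 and 2221 TPM at 65 dph and 2026, 2152, 2045, 2098 and 2214 TPM at 20 dph. Every library lay between 1815 and 2801 TPM, and no contrast of it was called.

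XR_002470918.1 (1171 bases, no gene) was the third, at a mean of 2530 TPM. It had 3810.2, 4701, 3559.5, 3735 and 2602 TPM in Select fish of 65 dph and 1058, 1453, 2432, 2170.5 and 2781 TPM at 20 dph. Commercial fish had 3672, 2660.4, 3472, 2623 and 3281 TPM at 65 dph and 1087, 1257, 2096, 826 and 1320.1 TPM at 20 dph. The ages overlapped in Select, through the 2602 TPM of replicate 5 at 65 dph, and did not overlap in Commercial. It rose with age in Commercial (log2 fold change 0.86 ± 0.24, adjusted p = 0.0155, edgeR) and was at 0.50 ± 0.24 in Select (adjusted p = 0.145, edgeR).

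XR_002471648.1 varied widely between libraries. It is 199 bases long, of which a mean of 43.9 bases counted as effective length (the number of positions from which a fragment could come), so a TPM of 1939 rested on a mean of 640.0 expected counts. It had 135, 666, 107, 981 and 383 TPM in Select fish of 65 dph and 4462, 5233, 346, 1274 and 972 TPM at 20 dph. Commercial fish had 52.9, 379, 544, 178 and 404 TPM at 65 dph and 5952, 1435, 348, 9302 and 5621 TPM at 20 dph. The ages overlapped in both strains. It fell with age by the test, with a log2 fold change of -3.14 ± 0.95 in Select (adjusted p = 0.0223) and -4.29 ± 1.00 in Commercial (adjusted p = 0.005, edgeR for both). In Select that call was lost under 9 alternative settings.

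The other 7 of the first 12 were XR_002475412.1, XR_002472765.1, XR_002470919.1, XR_002468655.1, XR_002469977.1, XR_002470490.1 and XR_002469241.1, with means of 2126, 1865, 1482, 1147, 1056, 933 and 677 TPM. XR_002475412.1 had the most reads of any member, a mean of 35676 expected counts over 2914 bases. XR_002470490.1 fell with age in Select (log2 fold change -0.70 ± 0.21, adjusted p = 0.0204, edgeR) and was at -0.51 ± 0.21 in Commercial (adjusted p = 0.0933, edgeR). The Select call was lost under 5 settings: limma with each of its pseudocounts, and without Select 65 dph replicate 2 or Select 20 dph replicate 3. XR_002469241.1 belongs to the transcribed pseudogene LOC110494272 and is described with the strains.

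**Figure D2:**
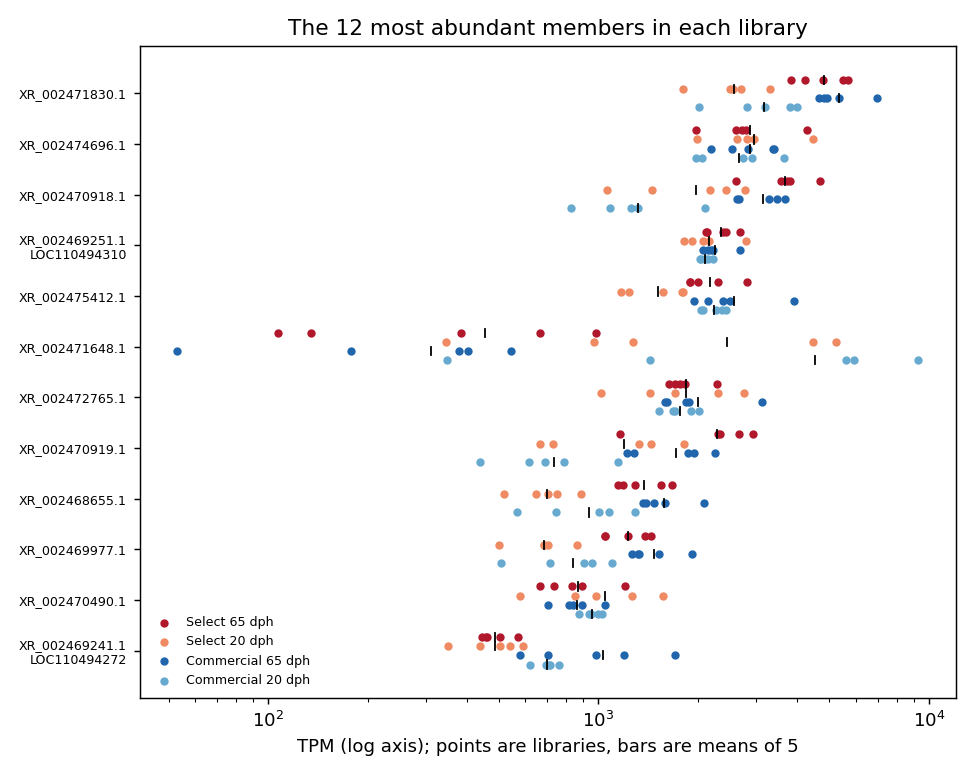
TPM (log axis) of the 12 most abundant members in each of the 20 libraries; points are libraries, coloured by group, and black bars are the means of 5. XR_002471648.1 spreads from 52.9 to 9302 TPM, while XR_002469251.1 stays between 1815 and 2801 TPM.

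Some of the most abundant members kept a nearly fixed ratio in every library. The TPM of XR_002471830.1 was 3.50 to 4.05 times that of XR_002469977.1, with a median of 3.74 and a coefficient of variation (CV) of 4.53% over 20 libraries. XR_002468655.1 was 0.946 to 1.21 times XR_002469977.1, with a CV of 5.41%, and XR_002471830.1 was 3.10 to 3.94 times XR_002468655.1, with a CV of 6.21%. XR_002470918.1 was 1.38 to 2.23 times XR_002470919.1, with a CV of 14.2%. Over the 66 pairs of the first 12 members the median CV was 43.4%. None of these 5 transcripts was paired with a gene. XR_002471830.1, XR_002469977.1 and XR_002470919.1 had a whole count in none of the 20 libraries, XR_002470918.1 in 6 and XR_002468655.1 in 11.

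Divided reads concerned many members. Salmon, the authors' counting tool, divides a read that fits several transcripts, which leaves counts that are not whole. The count was whole (within 0.001) in all 20 libraries for 68 members and in none for 143. Members varied more within groups than coding transcripts chosen at the same level, with a median CV of 31.0% against 19.3%. The median CV was 49.6% for the 72 members under 300 bases, 33.8% for the 162 of 300 to under 1000 bases and 22.2% for the 164 of 1000 bases or more. Coding transcripts of these lengths had medians of 33.4%, 21.1% and 19.1%, in the same order. All 20 libraries were at or above 10 TPM for 164 members.

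Another 77 members (19.3%) were both under 1 TPM and at 10 TPM or more in different libraries of 1 group, 34 of them under 300 bases. Among coding transcripts at or above 10 TPM, 449 did so (4.68%). An example is XR_002472133.1, of 204 bases, which lay between 0 and 276 TPM in Select libraries of 65 dph and between 0 and 1109 TPM at 20 dph. In Commercial libraries it lay between 22.5 and 283 TPM at 65 dph and between 865 and 999 TPM at 20 dph.

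Some members shared a gene. The 2 transcripts of the transcribed pseudogene LOC110536350 summed to 385 ± 69.6 TPM in Select fish of 65 dph and 321 ± 88.3 TPM at 20 dph, and to 451 ± 124 and 435 ± 58.5 TPM in Commercial fish of 65 and 20 dph (SD, n = 5 each). XR_002475414.1 took 51.2% to 63.6% of that sum in every library. The members of the protein-coding gene LOC110508373 summed to 86.2 to 177 TPM over all libraries, while XR_002471294.1 took from 0% to 82.3% of the sum. In LOC110530711, XR_002474586.1 took 0% to 38.7%, and in the lncRNA gene LOC110496411, XR_002469551.1 took 7.03% to 64.0%.

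The age comparison asks how the members differed between 65 and 20 dph within a strain. Expected counts were tested with edgeR's quasi-likelihood test, with TMM scaling and Benjamini-Hochberg adjustment over all 38529 transcripts that passed a filter on low counts, and a member was called at an adjusted p under 0.05. Levels in this comparison are CPM (counts scaled for library depth with TMM factors) and differences are log2 fold changes with an approximate SE. Of the 398 members, 378 were tested and 20 were not. Those 20 had a median length of 224 bases and mean counts of 0.9 to 76.9.

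In Select fish, 123 of the 378 tested members were called, against a background of 23.9% of all transcripts tested. Of these, 57 rose (background 11.1%) and 66 fell (background 12.8%), and 39 of the 57 and 44 of the 66 had groups that did not overlap. Called or not, 92 members had ages that did not overlap in Select (background 20.1%) and 85 in Commercial (background 16.8%). In Commercial fish, 98 were called (background 20.3%), of which 48 rose (background 9.2%) and 50 fell (background 11.1%). A member that reached 10 TPM only through the age at which it was high had to differ between ages. Of the 269 tested members with at least 10 TPM in each group, a bound that also removes those with the largest changes, 27 rose and 58 fell in Select and 22 rose and 45 fell in Commercial. The coding transcripts at or above 10 TPM were chosen like the 378 tested members, by the mean over all libraries and not in each group. They were tilted further towards lower values than the 378. In Select 979 of them were higher and 3381 lower, and in Commercial 961 were higher and 2910 lower. Called either way were 45.8% of these 9514 coding transcripts in Select and 40.7% in Commercial. Members were called less often than these, at 32.5% and 25.9% of the 378 tested. The median log2 fold change of the members was 0.01 in Select and 0.02 in Commercial, beside 0.09 and 0.06 over all transcripts tested.

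These splits depend on the scale, since the mass of transcripts moves with age on the TPM scale. With limma on log2(TPM + 0.5), the median of all transcripts tested shifted to 0.39 in Select and 0.33 in Commercial, and 130 members were higher and 32 lower in Select (background 34.2% called either way) and 118 higher and 25 lower in Commercial (background 28.7%). After centring each library on its median, an alternative added after seeing the data, limma gave 61 higher and 73 lower in Select (background 25.3%) and 51 and 60 in Commercial (background 22.5%). Directions below are relative to the TMM scale. Without the 2 alike libraries, edgeR called 51 members higher and 61 lower in Select (background 21%) and 44 and 45 in Commercial (background 17.6%). Without the liver-rich library it called 46 and 56 in Select (background 20.6%) and 53 and 52 in Commercial (background 20%).

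Some members were called in both strains. The like shares over all transcripts are not given, so this sharing is not shown to be particular to the members. Called higher in both were 34 members, 59.6% of the Select list and 70.8% of the Commercial list, and called lower in both were 46, 69.7% of the Select list and 92% of the Commercial list. No member was called in opposite directions, and 237 were called in neither strain. The difference of the age effects between strains was called for 0 members by edgeR (background 0% of 38529), with 17 members at an unadjusted p under 0.05 (background 5.03%) and 1 member called by DESeq2 (background 0.41%).

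**Figure D3:**
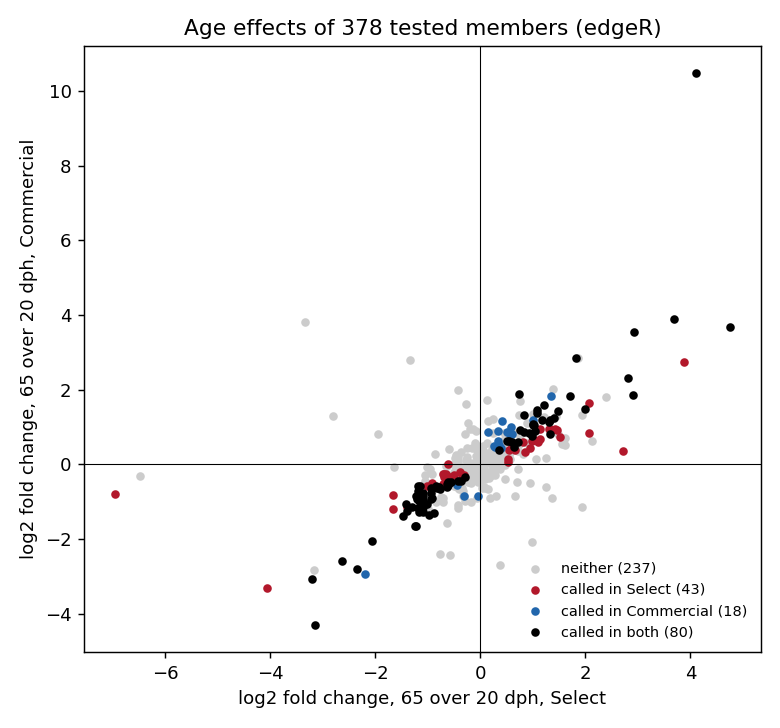
Log2 fold change of 65 over 20 dph in Select (x axis) against Commercial (y axis) for the 378 tested members, from edgeR; black points were called in both strains, red in Select, blue in Commercial and grey in neither. The 80 members called in both lie in the quadrants of equal sign, 34 higher and 46 lower at 65 dph.

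By class, lncRNA transcripts moved both ways, with 10 higher and 10 lower of 55 tested in Select and 6 and 9 in Commercial. The background over all transcripts tested was 11.1% higher and 12.8% lower in Select, and 9.2% and 11.1% in Commercial. Of the 9 pseudogene transcripts none was called higher, while 4 were lower in Select and 3 in Commercial. Coding transcripts at or above 10 TPM leaned the same way, with 10.3% higher and 35.5% lower in Select and 10.1% and 30.6% in Commercial. A fall particular to pseudogenes is therefore not shown. LOC110530645 fell by 1.10 ± 0.22 in Select and 1.00 ± 0.22 in Commercial on the log2 scale (adjusted p = 0.00114 and 0.00266), and LOC110508961 fell by 0.94 ± 0.13 and 0.77 ± 0.13 (adjusted p = 4.13e-05 and 0.000283, edgeR). Among the 3 misc_RNA transcripts only LOC101268898 was called, falling by 1.17 ± 0.15 in Select and 1.27 ± 0.15 in Commercial (adjusted p = 2.22e-05 and 1.02e-05, edgeR). Of the 295 tested members without a gene, 46 rose and 47 fell in Select and 41 rose and 34 fell in Commercial.

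The called share also differed by length, which sets how many counts stand behind a TPM. In Select, 8 of 55 tested members under 300 bases were called (14.5%), against 33.1% of 160 members of 300 to under 1000 bases and 38.0% of 163 longer ones. In Commercial the shares were 10.9%, 25.6% and 31.3%. Over all transcripts tested, of any length, the shares were 23.9% in Select and 20.3% in Commercial. Shares by length are not given for other transcripts, so the difference by length is not shown to be a trait of the members.

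Many of the members named below for a change passed 10 TPM at 1 age only, so the size of their change is tied to the choice. XR_002474264.1, XR_002470116.1, XR_002472662.1, XR_002472346.1, XR_002471918.1, XR_002472353.1, XR_002474934.1, XR_002475146.1 and XR_002469302.1 averaged under 10 TPM at 20 dph in at least 1 strain, and XR_002474473.1, XR_002473346.1, XR_002474239.1, XR_002474070.1 and XR_002468011.1 at 65 dph in both.

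XR_002474264.1, the transcript of the lncRNA gene LOC110528488, rose in both strains. It had 96.8, 163, 46.6, 43.9 and 74.6 CPM in Select fish of 65 dph and 1.70, 1.11, 19.8, 1.21 and 0.490 CPM at 20 dph. Commercial fish had 122, 72.9, 11.9, 40.8 and 4.45 CPM at 65 dph and 0, 0, 0, 0 and 0.120 CPM at 20 dph. The ages did not overlap in either strain, and Select replicate 3 stood above the other 20 dph libraries. It rose by a log2 fold change of 4.10 ± 0.96 in Select (adjusted p = 0.00425, edgeR). In Commercial it was also called (adjusted p = 0.000136, edgeR), but the 20 dph group held 1 count in all, so the ratio of pooled CPM, 2873, has a 95% interval of 516 to 113488 that covers counting error only.

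XR_002470116.1, the transcript of the lncRNA gene LOC110500499, was steadier. It had 40.2, 21.0, 37.9, 32.1 and 25.7 CPM in Select fish of 65 dph and 2.27, 5.67, 1.95, 8.86 and 1.84 CPM at 20 dph. Commercial fish had 31.9, 31.3, 32.9, 43.8 and 30.6 CPM at 65 dph and 2.69, 1.95, 4.24, 1.06 and 4.56 CPM at 20 dph. All 10 libraries of 65 dph lay above all 10 of 20 dph. The log2 fold change was 2.92 ± 0.43 in Select (adjusted p = 9.68e-05) and 3.55 ± 0.44 in Commercial (adjusted p = 2.12e-05, edgeR).

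XR_002472662.1 (834 bases, no gene) rose as well. It had 24.1, 14.7, 22.1, 23.9 and 4.49 CPM in Select fish of 65 dph and 1.28, 3.08, 0.108, 1.09 and 1.35 CPM at 20 dph. Commercial fish had 38.6, 4.33, 47.8, 57.0 and 23.7 CPM at 65 dph and 0.717, 2.75, 3.81, 1.77 and 2.52 CPM at 20 dph. The lowest values at 65 dph, 4.49 and 4.33 CPM, came from the 2 alike libraries, and the ages did not overlap. Its log2 fold change was 3.69 ± 0.71 in Select (adjusted p = 0.000983) and 3.89 ± 0.70 in Commercial (adjusted p = 0.00061, edgeR).

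Other members without a gene that rose were XR_002472346.1 (4.75 ± 0.98 in Select and 3.67 ± 0.93 in Commercial on the log2 scale), XR_002471918.1 (2.91 ± 0.45 and 1.87 ± 0.43), XR_002471623.1 (2.81 ± 0.68 and 2.30 ± 0.66) and XR_002472353.1 (1.83 ± 0.63 and 2.86 ± 0.65), all called in both strains. XR_002474934.1, XR_002469318.1 and XR_002475146.1 were called higher in Select with 3.88 ± 1.09, 2.71 ± 0.79 and 2.07 ± 0.66, and their values in Commercial were 2.74 ± 1.05, 0.35 ± 0.74 and 1.64 ± 0.65. Of these, XR_002469318.1 is only 210 bases long. In Select libraries of 20 dph it lay between 0 and 80.3 TPM, with 2 libraries under 1 TPM. XR_002475146.1, at 6454 bases the longest member, lost its call under 9 settings, the 2 alike libraries left out among them. Of these 9, 2 are the same fit, since the liver-rich library is Select 20 dph replicate 1.

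Among members that fell, XR_002474473.1 (909 bases, no gene) changed by the most among those called lower in both strains without overlap. It had 0.862, 1.44, 0.758, 2.28 and 1.06 CPM in Select fish of 65 dph and 18.9, 7.40, 6.59, 8.01 and 18.1 CPM at 20 dph. Commercial fish had 2.45, 1.22, 1.93, 2.38 and 1.60 CPM at 65 dph and 15.0, 18.6, 14.8, 14.7 and 17.9 CPM at 20 dph. No library of 65 dph reached 3 CPM, and none of 20 dph was under 6.59 CPM. Its log2 fold change was -3.21 ± 0.36 in Select (adjusted p = 9.49e-06) and -3.07 ± 0.36 in Commercial (adjusted p = 1.02e-05, edgeR).

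XR_002473346.1, of the lncRNA gene LOC110522594, also fell. It had 0.431, 1.33, 0.827, 0.240 and 0.946 CPM in Select fish of 65 dph and 3.84, 2.84, 1.95, 2.19 and 8.71 CPM at 20 dph. Commercial fish had 0.881, 0.667, 0.966, 0.376 and 1.48 CPM at 65 dph and 9.05, 3.10, 3.70, 6.96 and 8.28 CPM at 20 dph. The ages did not overlap in either strain, and the log2 fold change was -2.35 ± 0.53 in Select (adjusted p = 0.00326) and -2.81 ± 0.53 in Commercial (adjusted p = 0.000985, edgeR).

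XR_002474239.1, of LOC110528360, fell by the same amount in both strains. It had 1.81, 1.95, 2.28, 2.52 and 2.25 CPM in Select fish of 65 dph and 7.25, 15.3, 5.95, 12.4 and 4.05 CPM at 20 dph. Commercial fish had 3.23, 2.67, 3.87, 2.50 and 2.74 CPM at 65 dph and 13.3, 7.35, 11.4, 13.5 and 16.9 CPM at 20 dph. All 20 dph libraries lay above all 65 dph libraries, and the log2 fold change was -2.05 ± 0.31 in Select (adjusted p = 0.000122) and -2.05 ± 0.31 in Commercial (adjusted p = 0.000125, edgeR).

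The other members named for a fall were XR_002474070.1, with log2 fold changes of -2.63 ± 0.50 in Select and -2.59 ± 0.50 in Commercial, XR_002469812.1 with -1.48 ± 0.22 and -1.38 ± 0.22, XR_002471476.1 with -1.41 ± 0.32 and -1.06 ± 0.32, and XR_002469972.1 with -1.40 ± 0.17 and -1.25 ± 0.17. XR_002468011.1, the transcript of LOC110485941, had -1.23 ± 0.32 and -1.64 ± 0.32, XR_002474095.1 had -1.25 ± 0.36 and -1.64 ± 0.37, XR_002471159.1 had -0.98 ± 0.17 and -1.35 ± 0.17, and XR_002475837.1 had -0.88 ± 0.30 and -1.31 ± 0.30. All 8 were called in both strains by edgeR. XR_002475388.1 was called in Select with -1.65 ± 0.52, and its value in Commercial was -1.19 ± 0.51. The Select call was lost under 8 alternative settings.

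Markers of other cells moved with age beside these members. The 3 paired T cell markers of 4 listed (cd3e, cd8a and cd4-1) were all called higher in both strains and summed to 44.0 to 62.7 TPM in Select fish of 65 dph and 7.08 to 10.5 TPM at 20 dph, and to 41.9 to 63.0 TPM and 3.41 to 7.99 TPM in Commercial fish of 65 and 20 dph. The 3 paired erythrocyte markers of 4 listed (hba1, hbb1 and alas2) summed to 468 to 760 TPM in Select fish of 65 dph and 12.3 to 79.2 TPM at 20 dph, and to 388 to 756 TPM and 15.9 to 77.0 TPM in Commercial fish of 65 and 20 dph. Of 9 paired enterocyte genes, 0 rose and 4 fell in Select and 2 rose and 5 fell in Commercial. Of 10 liver genes listed after the data were seen, 7 were tested, of which 7 fell in Select and 2 in Commercial. They summed to 23.5 to 80.6 TPM in Select fish of 65 dph and, in the 4 libraries of 20 dph other than the liver-rich one, to 88.7 to 587 TPM. In Commercial fish they summed to 37.0 to 162 TPM at 65 dph and 399 to 1325 TPM at 20 dph. Much of these sums was 1 of the 10 genes, apoa2. Its median in Commercial fish was 78.7 TPM at 65 dph and 796 TPM at 20 dph, beside median sums of 102 and 876 TPM. In Select fish its median was 16.6 TPM at 65 dph and 550 TPM at 20 dph, beside 30.3 and 578 TPM. The part of these cells in the members' values was not tested.

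In protein-coding genes the share of a non-coding member within its gene could be followed. XR_002474833.1 took 87.6% to 97.6% of the TPM of LOC110532451 and XR_002475239.1 took 92.5% to 100% of LOC110535322, so these genes were represented almost wholly by a non-coding model. XR_002468992.1 held a smaller and even share of LOC110492374, 23.8% to 36.6%. XR_002469302.1, of LOC110494662, took 44.1% ± 4.59 of its gene in Select fish of 65 dph and 26.8% ± 6.48 at 20 dph, and 36.7% ± 8.24 and 22.0% ± 4.39 in Commercial fish of 65 and 20 dph (SD, n = 5 each). Its own level rose with age, with a log2 fold change of 1.01 ± 0.23 in Select (adjusted p = 0.00328) and 1.06 ± 0.23 in Commercial (adjusted p = 0.00256, edgeR). The gene, with the counts of all its transcripts summed, was not called, at 0.212 in Select (adjusted p = 0.116) and 0.215 in Commercial (adjusted p = 0.119, edgeR). It overlaps cenps, whose gene sum changed by -2.18 in Select and -2.31 in Commercial. The strand used in counting is not given, so values of overlapping genes are uncertain.

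Neighbouring genes with a symbol were found for 35 member genes in 43 pairs, of which 27 had both genes tested on gene sums (background 34.3% of all gene sums called in Select and 30.1% in Commercial). In Select, both were called in the same direction in 4 pairs and in opposite directions in 3, only the member in 5, only the neighbour in 7 and neither in 8. In Commercial the counts were 3, 0, 5, 8 and 11. The pair with the largest changes, chosen after its values were seen, was LOC110500499 and si:ch211-212k18.15, a protein-coding gene next to it. The member gene rose by 2.90 in Select and 3.54 in Commercial and the neighbour by 3.14 and 3.32 on the log2 scale, all 4 called. LOC110485776 and its neighbour dtd1, a deacylase that clears wrongly charged tRNAs, fell together, by 0.96 and 0.90 in Select and 0.64 and 0.70 in Commercial. LOC110521442 and pex11a, which makes a peroxisome membrane protein, went opposite ways in Select, with 1.11 for the member and -1.23 for pex11a. For overlapping genes the strand used in counting is not given in the sources used here, so the pairs LOC110491520 with armc7 and LOC110537499 with shpk, both called lower together in Select, are uncertain.

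Genes that handle non-coding RNA were looked at from lists of symbols. Of 45 symbols for RNA turnover, 14 genes were tested, of which 1 rose and 3 fell with age in Select and 2 rose and 2 fell in Commercial (background as for the neighbours, 34.3% and 30.1% of gene sums called either way), and 0 were called between strains. The exosome subunits exosc5 and exosc7, parts of the complex that degrades RNA from its 3′ end, fell in both strains. On gene sums exosc7 fell by 1.03 ± 0.25 in Select (adjusted p = 0.004) and 0.92 ± 0.25 in Commercial (adjusted p = 0.00947, edgeR) on the log2 scale. The median of the list was -0.14 in Select and 0.03 in Commercial. Of 4 tested genes for nuclear speckle proteins, srrm1, a splicing coactivator, rose in both strains. None of the 20 named non-coding RNAs on the list, such as malat1 and gas5, was paired with a transcript.

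The strain comparison sets Select against Commercial fish of one age. At 20 dph, 1 of the 378 tested members was called by edgeR (background 0.00519%, 2 of 38529 transcripts), with 45 members at an unadjusted p under 0.05 (background 9%). At 65 dph, 0 members were called by edgeR (background 0%), with 23 at an unadjusted p under 0.05 (background 5.43%). Groups did not overlap for 9 members at 20 dph (background 1.95%) and for 7 at 65 dph (background 0.958%). DESeq2 called 9 members at 20 dph (background 1.31%) and 1 at 65 dph (background 0.506%). Among the 9 was XR_002470907.1, with a median of 0.929 TPM and a highest value of 921 TPM in Select fish of 20 dph. Its edgeR log2 fold change was 6.37 with the liver-rich library and 2.27 without it (adjusted p = 0.286 and 0.731). DESeq2 was not run without that library. Without the 2 alike libraries, edgeR called 3 members at 20 dph (background 0.0891%) and 2 at 65 dph (background 0.0662%), with 52 and 48 at an unadjusted p under 0.05 (background 9.76% and 9.03%). With groups of 4 at 65 dph, 51 members then had strains that did not overlap (background 7.35%).

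The called member was XR_002472316.1, of 748 bases and with no gene. It had 28.7, 34.3, 37.9, 38.2 and 32.4 CPM in Select and 20.8, 39.9, 16.3, 25.8 and 16.7 CPM in Commercial fish of 65 dph. At 20 dph it had 15.5, 26.9, 19.8, 20.4 and 19.7 CPM in Select and 7.70, 6.43, 8.60, 4.37 and 5.28 CPM in Commercial fish. The strains did not overlap at 20 dph, and at 65 dph they overlapped only through replicate 2 of Commercial, 1 of the alike libraries. Its log2 fold change at 20 dph was 1.66 ± 0.24 (adjusted p = 0.0362, edgeR), and 0.52 ± 0.23 at 65 dph (adjusted p = 0.878, edgeR). The call was lost under 14 settings, such as no filter on low counts (adjusted p = 0.0508), and without the alike libraries its adjusted p was 0.0033. The difference of its age effects was -1.14 ± 0.33 (adjusted p = 0.975, edgeR), so its age effect is not shown to differ between strains. T cell markers moved beside it: on gene sums cd3e was higher in Select at 20 dph (log2 fold change 0.98 ± 0.17, adjusted p = 0.0284, edgeR), 1 of 3 tested, and the 3 summed to 7.08 to 10.5 TPM in Select and 3.41 to 7.99 TPM in Commercial fish of 20 dph. The part of T cells in its value was not tested.

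XR_002471540.1, of the lncRNA gene LOC110510226, separated the strains in all libraries but one. It had 24.4, 30.6, 35.1, 38.3 and 28.4 CPM in Select and 7.53, 32.0, 7.09, 7.76 and 7.19 CPM in Commercial fish of 65 dph. At 20 dph it had 50.7, 45.6, 30.8, 50.8 and 24.9 CPM in Select and 13.7, 11.8, 11.3, 8.73 and 2.76 CPM in Commercial fish. The 32.0 CPM of Commercial replicate 2 lay within the Select range, and every other Commercial library lay below every Select library. The log2 fold change was 2.06 ± 0.44 at 20 dph (adjusted p = 0.11, edgeR) and 1.35 ± 0.44 at 65 dph (adjusted p = 0.753, edgeR). Without the 2 alike libraries it was 2.09 at 20 dph (adjusted p = 0.0185) and 2.10 at 65 dph (adjusted p = 0.0376, edgeR), past the threshold at both ages.

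XR_002469241.1, of the transcribed pseudogene LOC110494272, was lower in Select. It had 231, 201, 219.9, 235 and 258.3 CPM in Select and 342, 258.5, 594, 858 and 509 CPM in Commercial fish of 65 dph. At 20 dph it had 229.7, 413, 346, 247 and 294 CPM in Select and 445, 428, 428, 424 and 493 CPM in Commercial fish. The strains did not overlap at either age, but at 65 dph the gap was only that between the 2 alike libraries. Its log2 fold change was -0.54 ± 0.24 at 20 dph (adjusted p = 0.508) and -1.16 ± 0.24 at 65 dph (adjusted p = 0.498, edgeR), and without the alike libraries -1.39 at 65 dph (adjusted p = 0.0316, edgeR).

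XR_002468347.1, a non-coding transcript of the protein-coding gene LOC110488108, was picked out after its values were seen. It passed 10 TPM only through Commercial fish, with means of 0 TPM in Select and 29.3 TPM in Commercial fish of 65 dph and 1.71 and 28.2 TPM in Select and Commercial fish of 20 dph, so its contrast is a description tied to the choice. It had 0, 0, 0, 0 and 0 CPM in Select and 22.7, 0, 21.5, 20.9 and 22.2 CPM in Commercial fish of 65 dph. At 20 dph it had 0, 0, 0, 5.95 and 0 CPM in Select and 24.5, 26.6, 22.3, 11.3 and 23.0 CPM in Commercial fish. Again Commercial 65 dph replicate 2 read as its near copy, Select 65 dph replicate 5. Pooled over the group, Select at 65 dph was 305.5-fold lower or more when its 5 libraries are given the floor of 3 counts. That figure takes the Commercial count as exact, and the 95% interval for counting error starts at 248.4-fold. Neither covers how reads were divided between this transcript and the other one of its gene. Neither contrast was called (adjusted p = 0.522 at 65 dph and 0.37 at 20 dph, edgeR), also without the alike libraries (adjusted p = 0.109 and 0.263, edgeR).

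The files hold 1 other transcript of LOC110488108, the coding model XM_021560129.1. It had 28.4 to 34.4 TPM in Select libraries of 65 dph and 22.8 to 34.6 TPM at 20 dph. In Commercial libraries it was listed at 0 TPM in 4 of 5 at 65 dph, with 33.0 TPM in replicate 2, and at 0 in 4 of 5 at 20 dph, with 15.0 TPM in replicate 4. The sum of both transcripts was 31.6 ± 2.33 TPM in Select and 35.9 ± 2.21 TPM in Commercial fish of 65 dph, and 30.3 ± 5.87 and 31.2 ± 2.88 TPM in Select and Commercial fish of 20 dph (SD, n = 5 each). On gene sums the log2 fold change between strains was -0.14 at 65 dph (adjusted p = 0.883) and 0.05 at 20 dph (adjusted p = 0.927, edgeR). No strain difference of the gene sum was called, while the transcript that received the reads differed. Both transcripts were above 0 in Select replicate 4 and Commercial replicate 4 of 20 dph, and each other library held only 1 of them.

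**Figure D4:**
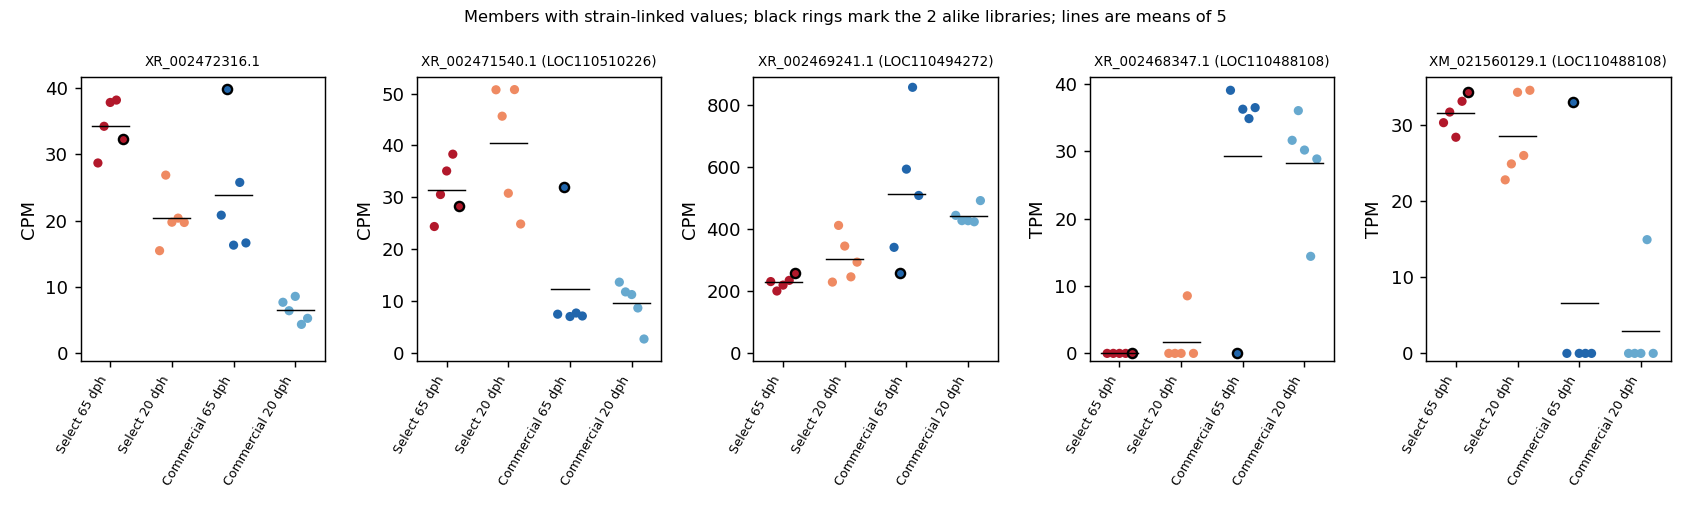
Values by library for 4 members and, at the far right, the coding transcript XM_021560129.1 of LOC110488108; the y axes are CPM in the 3 left panels and TPM in the 2 right ones, lines are means of 5 and black rings mark the 2 alike libraries. The ringed Commercial library of 65 dph reads 0 for XR_002468347.1 and 33.0 TPM for XM_021560129.1, as Select libraries do.

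Other members stood out between strains. XR_002471816.1 (no gene) had 2.44 ± 0.47 on the log2 scale at 20 dph with an adjusted p of 0.0718, and 0.0248 without the alike libraries (edgeR). XR_002474362.1 was called by DESeq2 at 20 dph with 1.35 (adjusted p = 0.000222), and edgeR gave 1.34 ± 0.26 (adjusted p = 0.0753, and 0.108 without the alike libraries). XR_002474264.1, described above, had 4.86 ± 8.35 CPM in Select and 0.0240 ± 0.0537 CPM in Commercial fish of 20 dph (SD, n = 5 each), with an adjusted p of 0.161 by edgeR, 0.194 without the alike libraries, and 1.02e-05 by DESeq2. It was also the member for which DESeq2 called the difference of the age effects (-6.60, adjusted p = 0.0159), which edgeR did not (-6.37 ± 2.03, adjusted p = 0.975, and 0.731 without the alike libraries).

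A last group of members was tied to 1 library. Select 20 dph replicate 1, the library with liver transcripts, was at least 10-fold above every other library for 4 members. XR_002474743.1 had 599 TPM there and 0 TPM in the other 19 libraries. XR_002473790.1, of LOC110525653, had 392 TPM there, 0.615 TPM in Commercial 20 dph replicate 5 and 0 TPM in the other 18. XR_002473651.1 had 249 TPM there and at most 1.60 TPM elsewhere.

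XR_002474609.1 (1053 bases) was measured in every library. It had 502 TPM in that library and 0.310, 0.561, 1.29 and 4.27 TPM in the other Select libraries of 20 dph. Select fish of 65 dph had 0.901, 1.32, 0.425, 1.31 and 1.85 TPM. Commercial fish had 3.76, 3.14, 2.92, 3.11 and 3.01 TPM at 65 dph and 4.83, 7.41, 3.98, 2.06 and 2.96 TPM at 20 dph. Its call with age in Select rested on this library, with a log2 fold change of -6.95 (adjusted p = 0.00536) with it and -0.82 (adjusted p = 0.385) without it (edgeR). At 65 dph all Select libraries lay below all Commercial libraries, and the 2 alike libraries, at 1.85 and 3.14 TPM, lay on either side. The strain difference at 65 dph was not called by edgeR, with or without the alike libraries. Strains did not overlap at 65 dph for 0.958% of all transcripts tested.

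All 4 of these members passed the mean of 10 TPM only through that library, and averaged 0 to 2.60 TPM in the other 19. XR_002474609.1 was tested and is among the 66 called lower with age in Select, and the other 3 were not tested. At the edge of the rule, XR_002471722.1 and XR_002468866.1 averaged 10.2 and 10.1 TPM with that library and 9.70 and 9.80 TPM without it. The part of liver RNA in their values was not tested. The liver markers of that library, in 10 genes listed after the data were seen, summed to 23298 TPM there and to 88.7 to 1325 TPM in the other libraries of 20 dph. Among these genes apoa2 reached 11697 TPM in Select and 1123 TPM in Commercial fish of 20 dph. XR_002472325.1 stood out in another library, with 268 TPM in Commercial 20 dph replicate 5 and at most 22.3 TPM in the others.

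**Figure D5:**
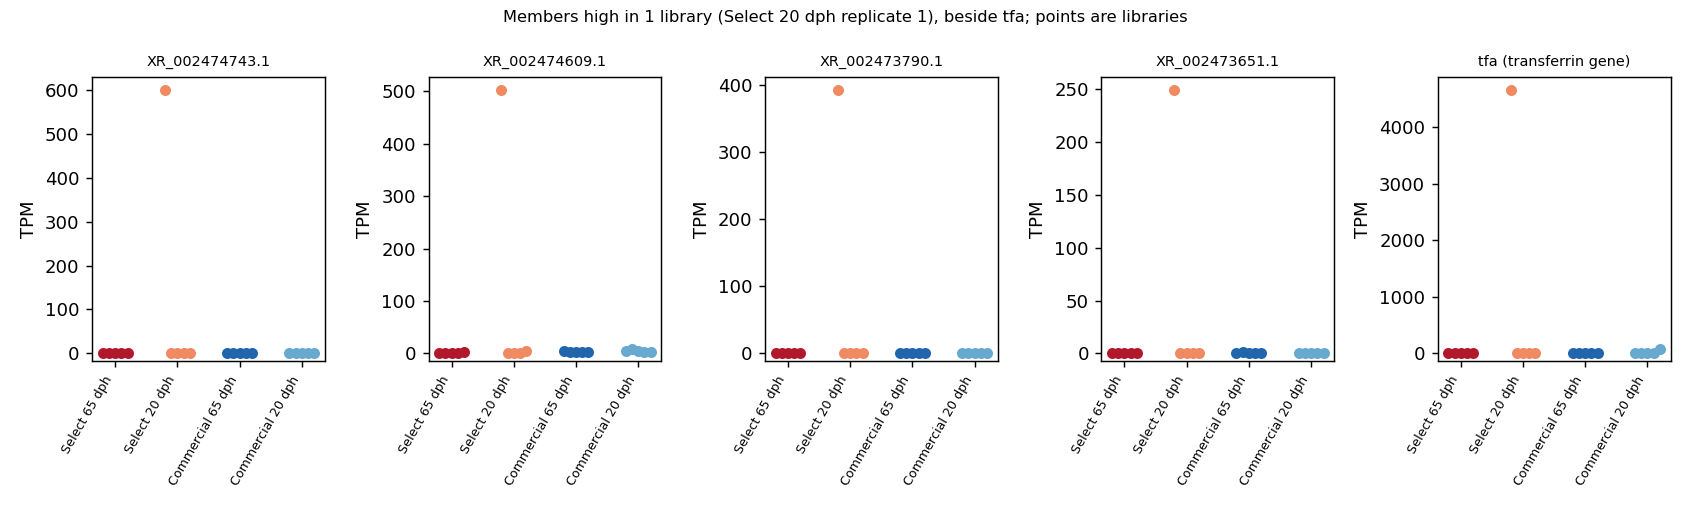
TPM by library for 4 members, from left to right, and for tfa, the transferrin gene; points are libraries in their 4 groups. In each panel the highest point is Select 20 dph replicate 1, at 249 to 599 TPM for the members and 4649 TPM for tfa.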

How the data were processed

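Whole-intestine RNA was sequenced as stranded, poly(A)-selected paired-end libraries, per the labels' protocols. The deposited files hold, per transcript, the length, effective length, expected count and TPM that the authors obtained with Salmon 1.2.1, per the file headers and the submitters' processing notes. The release of the transcript set is not given in the sources used here. Salmon divides shared reads between alike transcripts, so the expected counts deposited by the authors need not be whole, and TPM of very short transcripts rests on few counts. Library totals were 7314588 to 13682738 expected counts.

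Accessions without version were paired with genes of the RefSeq table, which paired 42376 of 78931 transcripts and 2013 XR_ transcripts. No sequences were used. Expected counts were rounded and tested with edgeR 4.0.16 in R 4.3.3 (TMM, filterByExpr, robust quasi-likelihood fit of 4 group means over 20 libraries, Benjamini-Hochberg adjustment over 38529 transcripts). The SE is the log2 fold change divided by the root of F. Gene sums were fitted in the same way. Alternatives used DESeq2 1.42.0, limma 3.58.1 on log2(TPM + 0.5), with pseudocounts of 0.1 and 1, other scaling and filters, a replicate block, and libraries left out. The fit was tested on simulated data.

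Groups come from the strain and age labels. The members, lists and tests were chosen with earlier results of these data known. Named members were the 12 most abundant, up to 8 per direction and contrast by size among called members whose groups do not overlap, those at the edge of 10 TPM, members of 1 gene, and neighbour pairs. Others were picked after their values were seen: XR_002468347.1, XR_002469241.1 and XR_002471540.1 between strains, the members high in 1 library, XR_002472133.1, and the neighbour pairs beyond the first 10 by TPM. Intervals and floors cover counting error only.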

Additional observations from a re-analysis of the deposited data

Results flagged for a closer look

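For 18 transcripts printed library by library, each of 72 groups of 5 libraries was looked at for a library far from the other 4, and 14 were found, where chance gives about 1 in 20 groups. Some of these transcripts were picked because a library stood apart, so the number found is not to be read against chance. In Select 20 dph replicate 1, XR_002474743.1 stood at 599 TPM, XR_002474609.1 at 502 TPM and XR_002473790.1 at 392 TPM, each far above the rest of its group, and this library also held 4649 TPM of tfa. The part of liver RNA was not tested.

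In Commercial 65 dph replicate 2, the library nearly the same as a Select library, XR_002471540.1 stood high at 32.0 CPM, XR_002468347.1 stood low at 0 CPM and XR_002469251.1 stood high at 2679 TPM. XR_002468347.1 also stood apart in replicate 4 of both strains at 20 dph, high at 5.95 CPM in Select and low at 11.3 CPM in Commercial.

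The other values were smaller or closer to their groups. XR_002474264.1 had 19.8 CPM in Select 20 dph replicate 3 and 0.120 CPM in Commercial 20 dph replicate 5, the only library of that group with a count. XR_002473346.1 had 8.71 CPM in Select 20 dph replicate 5, and XR_002470116.1 had 43.8 CPM in Commercial 65 dph replicate 4. XR_002474609.1 had 3.76 TPM in Commercial 65 dph replicate 1, and XR_002473790.1 had 0.615 TPM in Commercial 20 dph replicate 5.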

How the results depend on the processing

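The number of members was 695 with a bound of 5 TPM, 233 with 20 TPM and 84 with unmatched accessions left out, and 395 to 410 with 1 library left out of the mean. Between strains at 20 dph the count of called members was 1 (over all transcripts tested, 2 of 38529). It became 0 with no low-count filter (over all, 1 of 69033) and 9 with DESeq2 (504 of 38529). Limma at pseudocounts of 0.5, 0.1 and 1 gave 4, 5 and 5 (62, 67 and 70 of 38529), and 3 when centred per library (62 of 38529). Gene sums gave 3 (51 of 32166). The count was 3 without the 2 alike libraries (35 of 39302) and 3 without these and the liver-rich library (24 of 39074). With 1 library left out it was 0 to 3, being 3 without Commercial 65 dph replicate 2 (over all, 44 of 40006). It was 0 without any 1 of Select 65 dph replicates 1, 2, 3 and 4, Select 20 dph replicates 2, 3, 4 and 5, Commercial 65 dph replicate 4 and Commercial 20 dph replicates 1, 2 and 4. At 65 dph the count of 0 became 1 with DESeq2 (over all, 195 of 38529), 2 without the alike libraries (26 of 39302) and 2 without 3 libraries (32 of 39074). It was 0 to 2 with 1 library left out, being 2 without Commercial 65 dph replicate 2 (41 of 40006). For the difference of the age effects DESeq2 called 1 (over all, 158 of 38529), and leaving out 1 library gave 0 each time. With age, leaving out 1 library gave 92 to 125 called members in Select and 76 to 105 in Commercial. In Select the fit with 92 called 7711 of 39937 transcripts over all, and a fit with 125 called 9458 of 40007. In Commercial the fit with 76 called 6561 of 40042 over all, and the fit with 105 called 8045 of 40303. The causes were not tested.

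No pairing of the libraries by replicate number was seen. Same-numbered libraries had correlations of -0.0708 to 0.0717 in their deviations, and 0 of 30 were above 0.1. A pairing that moved few transcripts could not be seen this way. With the number as a replicate block, 0 members were called between strains at 20 dph, 0 at 65 dph and 0 for the difference. With age 119 were called in Select (over all transcripts tested, 8495 of 38529) and 96 in Commercial (7247 of 38529).

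For 44 results on single transcripts, the alternatives other than leaving out 1 library gave 572 values, of which 528 kept their direction and side of the threshold, 17 lost the call, 27 gained one and 0 reversed. Leaving out 1 library gave 880 values, of which 847 kept both, 29 lost the call, 4 gained one and 0 reversed. The fit without Select 20 dph replicate 1, the liver-rich library, is counted in both sets of values. The centred limma fit was added after seeing the data. Counts limit the short members: those under 300 bases had a median of 13.1 expected counts.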
